A study of Mus musculus with 18 samples.

Results

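The interferon response and antigen processing genes described here are 45 mouse genes chosen by symbol, with earlier results of these data known. All of them matched a gene among the 27179 listed. They comprise 10 transcription factors and sensors, 21 antiviral effectors, 8 interferon-inducible GTPases and 6 genes of antigen processing. They were measured by 3′ RNA-seq in naive CD4 T cells from mice whose Maf gene is floxed on both alleles (Maf fl/fl), without the CD4Cre transgene (CD4Cre- Maf fl/fl) or with it (CD4Cre+ Maf fl/fl). CD4Cre drives Cre recombinase from the Cd4 promoter, and c-Maf, the product of Maf, is a transcription factor. All cells were stimulated for 3.5 days with antibodies to CD3 and CD28 (anti-CD3 and anti-CD28) fixed to the plate, then sorted by flow cytometry, under 3 treatments labelled Tfh_A, Tfh_1 and Tfh_5, whose composition the sources used here do not give. The 18 libraries form 6 groups of 3, with replicate numbers 2, 4 and 5 under the label Cre-negative and 1, 3 and 6 under the label Cre-positive. Nothing in the sources used here says that a number is an animal, so the p-values reflect the spread among these libraries alone, which could be technical.

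Interferons are cytokines that signal through paired receptors and the JAK kinases to transcription factors. Type I interferon acts through a complex that includes STAT2 and IRF9 and binds the interferon-stimulated response element (ISRE), and genes induced by interferon-γ often carry the gamma-activated site (GAS). The genes they switch on include sensors of viral nucleic acid, effectors that block viral replication, and large GTPases that attack the membranes around intracellular pathogens. Interferon also induces the immunoproteasome and the TAP peptide transporter, which supply peptides to MHC class I, and T cells, like most cells, carry the receptors for both interferon types.

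Maf ran against the genotype labels. Its level, in CPM (counts scaled by library size and TMM, not corrected for transcript length), was 22.8, 8.07 and 5.03 in the libraries labelled Cre-positive under Tfh_A, 207, 260.1 and 196 under Tfh_1 and 397, 331 and 319 under Tfh_5. In the libraries labelled Cre-negative it was 0.270, 0 and 0 under Tfh_A, 0, 0 and 2.03 under Tfh_1, and 0 in all 3 under Tfh_5. The sources used here do not say which stretch is floxed, and 3′ reads may lie outside it. Neither this nor an exchange of the labels was tested, so the groups are named by their labels only. Library totals ran from 6424873.7 to 9236153.1 expected counts. All 8 T cell markers were above 0 in every group. Of the other cell markers, Pax5, Lyz2, Adgre1, Fcgr3, Ly6d and Ncr1 were at 0 in every library. The summed 6 B cell markers reached at most 28.02 CPM, mainly Ebf1, the 7 myeloid markers at most 10.4, the 5 plasmacytoid dendritic cell markers at most 35.8 (mainly Tcf4), the 4 NK cell markers at most 59.3 (mainly Klrd1) and the 2 CD8 T cell markers at most 7.84. In bulk libraries, fewer cells of a type and less RNA per cell cannot be told apart.

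The members' promoters carry the 2 interferon response motifs more often than promoters in general, which the choice of interferon-induced genes alone may give. It says nothing about these cultures. Windows of 300 bases, 250 before to 50 after a start, were held for 31 of the 45 members (37 windows, RefSeq, GRCm38.p6). The ISRE core GAAANNGAAA, searched on both strands, was in 18 of the 37 windows (48.6%), against 3.44% of 32851 windows of all genes. The GAS motif TTCNNNGAA, also on both strands, was in 10 of 37 (27%), against 8.3%. 5 windows held both, and in 1 the 2 matches overlapped. The 250 bases before the start are printed for 6 members with a call between treatments, chosen after their values were seen to show an ISRE alone (Oas3, Gbp2), both motifs (Gbp7), a GAS alone (Psmb8, Samhd1) and neither (Ifi47), with matches in capitals. A match is only a run of letters.
Oas3: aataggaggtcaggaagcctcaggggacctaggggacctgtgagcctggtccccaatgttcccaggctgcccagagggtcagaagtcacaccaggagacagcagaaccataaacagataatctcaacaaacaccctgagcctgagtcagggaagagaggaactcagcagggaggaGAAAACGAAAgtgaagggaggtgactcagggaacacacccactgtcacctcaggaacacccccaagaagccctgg
Gbp2: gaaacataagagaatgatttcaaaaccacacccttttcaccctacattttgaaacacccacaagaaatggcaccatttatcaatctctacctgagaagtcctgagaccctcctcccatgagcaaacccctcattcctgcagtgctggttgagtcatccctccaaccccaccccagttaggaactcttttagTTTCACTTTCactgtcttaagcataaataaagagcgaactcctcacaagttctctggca
Gbp7: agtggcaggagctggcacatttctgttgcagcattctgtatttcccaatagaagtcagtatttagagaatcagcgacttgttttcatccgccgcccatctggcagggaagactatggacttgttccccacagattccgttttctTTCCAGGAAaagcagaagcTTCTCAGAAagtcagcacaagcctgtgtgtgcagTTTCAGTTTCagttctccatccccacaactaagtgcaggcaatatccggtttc
Psmb8: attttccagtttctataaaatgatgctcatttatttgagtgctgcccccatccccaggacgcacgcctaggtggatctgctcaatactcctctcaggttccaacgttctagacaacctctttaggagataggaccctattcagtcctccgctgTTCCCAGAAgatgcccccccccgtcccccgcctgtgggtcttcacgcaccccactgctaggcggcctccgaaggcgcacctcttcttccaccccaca
Samhd1: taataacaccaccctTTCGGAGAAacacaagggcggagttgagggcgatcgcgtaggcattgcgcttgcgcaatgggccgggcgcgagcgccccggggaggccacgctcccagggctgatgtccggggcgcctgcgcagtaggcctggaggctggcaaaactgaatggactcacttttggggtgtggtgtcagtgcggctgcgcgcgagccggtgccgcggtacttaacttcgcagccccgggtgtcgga
Ifi47: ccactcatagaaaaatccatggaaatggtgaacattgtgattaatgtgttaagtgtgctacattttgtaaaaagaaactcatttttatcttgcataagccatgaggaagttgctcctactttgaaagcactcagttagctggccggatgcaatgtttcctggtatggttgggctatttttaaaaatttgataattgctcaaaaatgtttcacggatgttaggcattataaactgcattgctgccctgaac
The stretches are, in the same order, chr5:120777660-120777909 (minus strand), chr3:142620413-142620662 (plus strand), chr3:142530086-142530335 (plus strand), chr17:34197945-34198194 (plus strand), chr2:157135097-157135346 (minus strand) and chr11:49076337-49076586 (plus strand). The ISRE match begins 75 bases before the start in Oas3, 59 in Gbp2 and 53 in Gbp7. The GAS matches begin 106 and 87 bases before the start in Gbp7, 97 in Psmb8 and 235 in Samhd1. Some members are neighbours: Psmb9, Tap1, Psmb8 and Tap2 lie within chr17:34182030-34216321, inside the MHC region, and Gbp7, Gbp3 and Gbp2 within chr3:142530336-142638008. In the reference annotation, 17 of the 45 members overlap another gene, among them Nlrc5, Eif2ak2, Isg15, Ifi27l2a, Gbp2, Ifi47 and B2m, and the sources used here do not state that counting used strand, so their values may include reads of the partner.

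The interferon and antigen processing genes were on the whole lower in Tfh_5 than in Tfh_A under both genotype labels, while the summed level of Tfh_1 was lower than that of Tfh_A under the label Cre-negative and overlapped it under the label Cre-positive. Of the 44 members with any count, 36 had their highest group mean in a Tfh_A group, 21 of them under the label Cre-negative and 15 under the label Cre-positive. The exceptions were Ifit3, highest in Cre-negative Tfh_1, Gbp2, Ifi27l2a, Samhd1 and Sting1, highest in Cre-positive Tfh_1, and Dtx3l, Ifi47 and Irgm1, highest in Cre-positive Tfh_5. The share of all genes highest in a Tfh_A group was not computed, and the 44 include members too low to be tested. The summed level of all members without B2m was 2116 to 2347 CPM in Tfh_A, 1469 to 1649 in Tfh_1 and 1059 to 1343 in Tfh_5 under the label Cre-negative. The corresponding sums under the label Cre-positive were 1943 to 2376, 2168 to 2328 and 1455 to 1556 CPM. So the sums of the 3 treatments did not overlap under the label Cre-negative, and under the label Cre-positive only that of Tfh_5 stood apart. Abundant members weigh most in these sums. Under the label Cre-positive the mean of Samhd1 was 213 CPM in Tfh_A and 454 in Tfh_1, and that of Gbp2 143 and 261. Of the 39 members tested there, 30 had a negative change from Tfh_A to Tfh_1 and 9 a positive one.

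**Figure D1:**
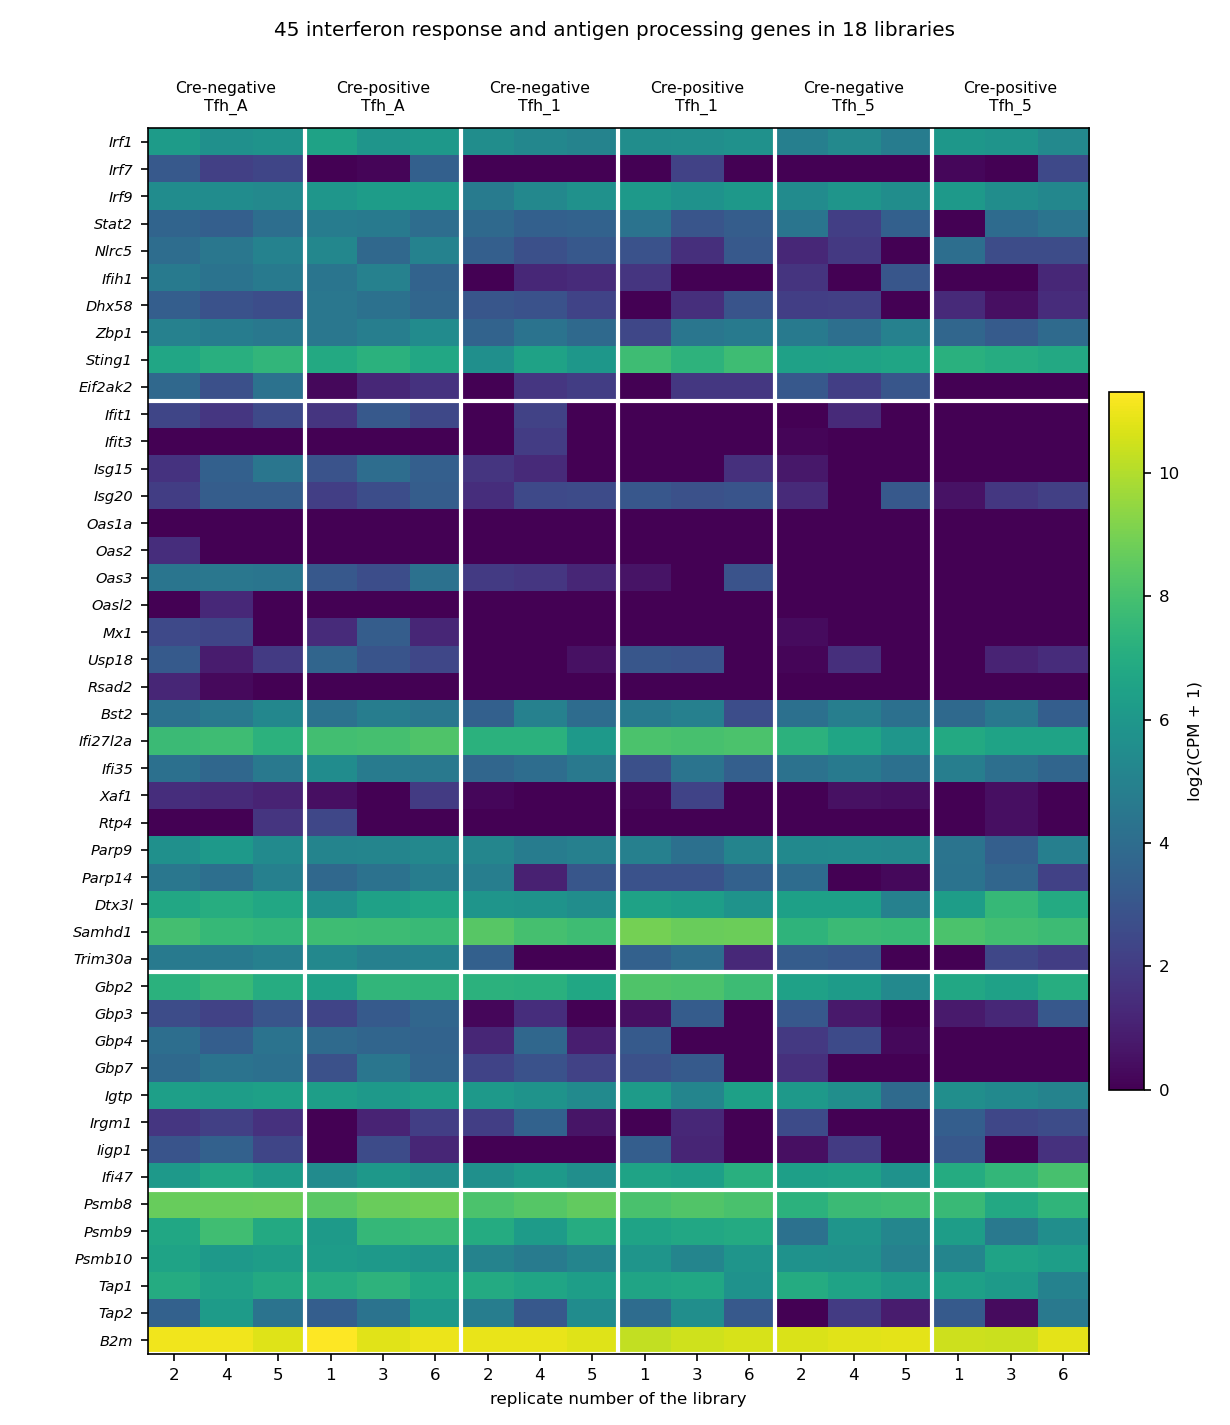
Level of each of the 45 members in each of the 18 libraries, coloured by log2(CPM + 1); rows are members grouped by role and columns are libraries grouped by treatment and genotype label. Of the 44 members with any count, 36 have their highest group mean in a Tfh_A group, and the share over all genes was not computed. Oas1a is dark throughout because its count was 0 in every library.

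The test was edgeR's quasi-likelihood test over all 11735 genes with enough counts, with Benjamini-Hochberg adjusted p under 0.05 as the threshold, and 39 members entered it. The 6 that did not were Ifit3, Oas2, Oasl2, Rsad2 and Rtp4, which reached at most 3.04, 1.76, 1.43, 1.35 and 4.38 CPM in any library, and Oas1a, at 0 in all. The members were chosen with earlier results of these data known, and a member can enter through the group where it is high. Counts and medians over the 39 are therefore a description, and the values of all genes beside them are no test of the set. Changes are log2 fold changes ± SE, and where 1 group had no count the fold is a lower bound against 3 counts over the group. This bound allows for counting noise alone, not for the spread between libraries. In all, 15 members passed the threshold in at least 1 of 12 comparisons, with 29 calls. The share of all genes called in at least 1 comparison was not computed, and shares are given by comparison below.

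Between Tfh_5 and Tfh_A, 6 members fell and 0 rose under the label Cre-negative, against 1.91% of all genes called lower and 3.17% called higher. Under the label Cre-positive, 7 fell and 1 rose, against 3.00% and 2.39%. The member median was -1.10 under the label Cre-negative, with 37 of 39 negative, and -1.32 under the label Cre-positive, with 32 of 39 negative; the medians of all genes were -0.09 and -0.05. In 24 of 39 members every Cre-negative Tfh_5 library lay below every Tfh_A library, against 13.9% of all genes, and in 0 above, against 10.7%. For the label Cre-positive this was so for 17 below, against 11.6%, and 2 above, against 9.78%. Members with a negative change under both labels numbered 30 of 39 (76.9%), against 33.8% of all genes. Without Cre-negative Tfh_A replicate 4 or Cre-negative Tfh_5 replicate 5, the 6 falls under the label Cre-negative became 3. Leaving out 1 library at a time, the medians ran from -1.57 to -1.03 and from -1.43 to -0.97.

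**Figure D2:**
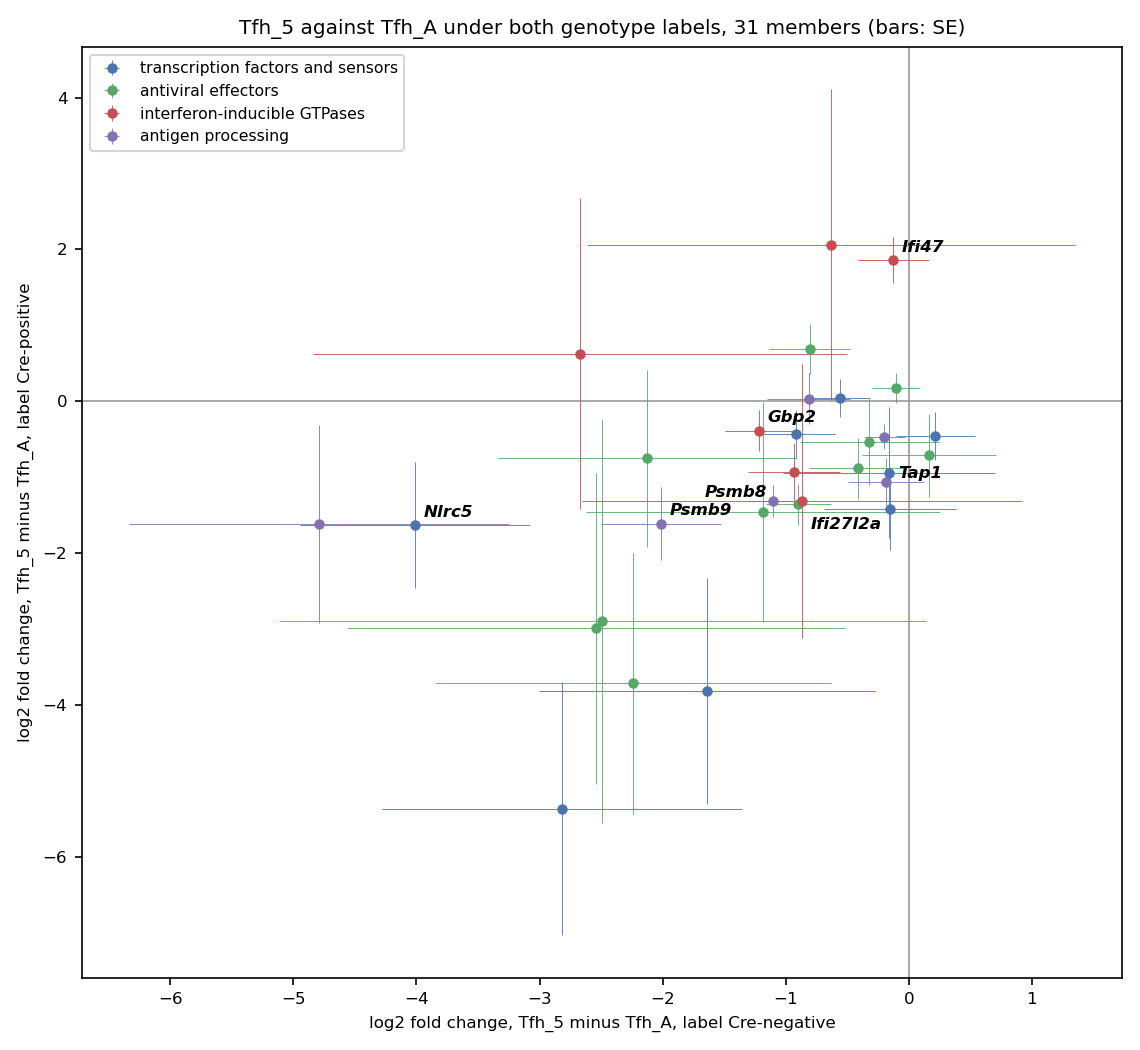
Log2 fold change between Tfh_5 and Tfh_A for 31 members, under the label Cre-negative on the x axis and Cre-positive on the y axis, with bars of 1 SE; the 8 tested members with a group at 0 counts are left out. Most points lie below 0 on both axes, and Ifi47 lies above 0 on the y axis with a short bar, beside another GTPase (Irgm1) whose bars are far longer.

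Few members passed the test between Tfh_1 and Tfh_A. Under the label Cre-negative, 2 fell and 0 rose, against 2.23% of all genes called in either direction, and under the label Cre-positive 2 rose and 0 fell, against 1.58% and 0.997%. Plain library sizes turned the latter split into 1 rise and 1 fall, and DESeq2 into 2 rises and 3 falls. Of the 2 falls, Sting1 and Psmb10, 0 held without Cre-negative Tfh_A replicate 5 or Cre-negative Tfh_1 replicate 2, and 1 held without any single other library of Cre-negative Tfh_A or Tfh_1. Of the 2 rises, Samhd1 and Ifi47, 1 held without any single library of Cre-positive Tfh_A or without Cre-positive Tfh_1 replicate 1 or 6. The member medians were -0.89 and -0.59, with 37 and 30 of 39 negative, beside -0.04 and -0.06 over all genes. Leaving out 1 library at a time, the first median ran from -1.07 to -0.83 and the second from -0.94, without Cre-positive Tfh_1 replicate 3, to -0.54. Tfh_1 lay wholly below Tfh_A in 20 members and above in 0 under the label Cre-negative, against 12.2% and 10.4% of all genes. Among the libraries labelled Cre-positive it lay below in 14 and above in 4, against 9.76% and 9.06%. Both comparisons use the Tfh_A libraries that the Tfh_5 comparisons use. Between Tfh_5 and Tfh_1, 0 members passed under the label Cre-negative, against 0.554% of all genes in either direction; 8 members had an unadjusted p under 0.05, DESeq2 called 5, and without Cre-negative Tfh_5 replicate 2 the count was 2. Under the label Cre-positive, 5 members fell and 0 rose, against 1.32% and 0.435%, and of these falls 3 held without Cre-positive Tfh_1 replicate 1 or 3 or Cre-positive Tfh_5 replicate 6, and 2 without Cre-positive Tfh_5 replicate 3.

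The Tfh_A libraries also differed in make-up. The 2 most abundant genes took 19.7% to 33.7% of the counts in Cre-negative Tfh_A and 27.4% to 46.2% in Cre-positive Tfh_A, against 33.1% to 43.0% in the Cre-negative and 37.2% to 41.6% in the Cre-positive libraries of the other treatments. The 8 T cell markers summed to 1775 to 1844 CPM in Cre-negative Tfh_A, 2262 to 2706 in Tfh_1 and 2099 to 2722 in Tfh_5, and to 2009 to 2396, 3479 to 3763 and 3067 to 3463 under the label Cre-positive, so these sums were lowest in Tfh_A under both labels, although the median change of the 8 markers from Tfh_A to Tfh_5 was -0.36 under the label Cre-negative and 0.40 under the label Cre-positive. Ebf1, a B cell marker, was called lower under the label Cre-positive in Tfh_1 (0 CPM in all 3 libraries) and Tfh_5 (0 to 0.302 CPM) than in Tfh_A (7.12 to 23.4 CPM). Their part in the members' changes was not tested. With plain library sizes the median of all genes between Tfh_5 and Tfh_A under the label Cre-negative was -0.64 in place of -0.09, and in all 4 comparisons with Tfh_A the member median stayed below the median of all genes.

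**Figure D3:**
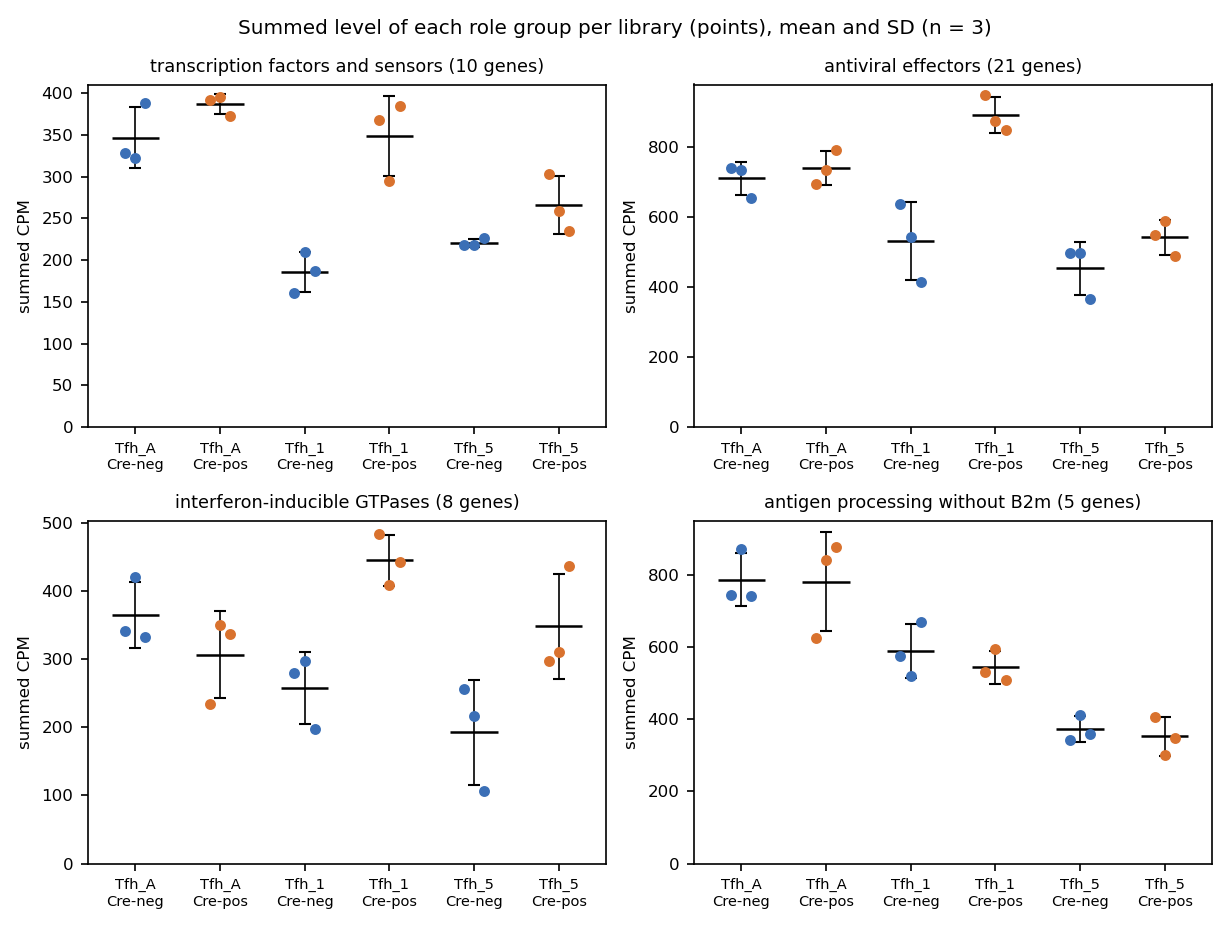
Summed CPM of the members of each role in each library, by treatment and genotype label, with points for libraries, a horizontal line for the group mean and bars of 1 SD (n = 3); antigen processing is drawn without B2m. In the antigen processing panel Tfh_5 lies below Tfh_A under both labels, while the antiviral and GTPase panels are high in Cre-positive Tfh_1.

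The antigen processing genes are the 3 catalytic subunits of the immunoproteasome (Psmb8, Psmb9, Psmb10), the 2 subunits of the TAP transporter (Tap1, Tap2), which carries peptides into the endoplasmic reticulum, and B2m, the light chain of MHC class I. Without B2m they summed to 742 to 870.2 CPM in Tfh_A, 520.1 to 669 in Tfh_1 and 344 to 412 in Tfh_5 under the label Cre-negative, and to 625 to 877, 507 to 594 and 299.9 to 407 under the label Cre-positive. Tfh_5 lay below both other treatments without overlap under both labels. Between Tfh_5 and Tfh_A, 2 of the 6 fell under each label, against 1.91% and 3.00% of all genes called lower. The role's medians were -0.96 and -1.19.

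Psmb8 stood at 413, 413 and 416 CPM in Tfh_A, 273, 317 and 385 CPM in Tfh_1 and 151, 207 and 222 CPM in Tfh_5 under the label Cre-negative. Psmb8 under the label Cre-positive stood at 343, 416 and 448 CPM in Tfh_A, 266, 299 and 269 CPM in Tfh_1 and 203, 114 and 168 CPM in Tfh_5. The 3 treatments were in the order Tfh_A, Tfh_1, Tfh_5 under both labels, with no overlap between Tfh_5 and either of the others. Psmb8 fell from Tfh_A to Tfh_5 under the label Cre-negative (-1.10 ± 0.21, adjusted p = 0.000549) and under the label Cre-positive (-1.32 ± 0.21, adjusted p = 4.33e-05). The first of these calls held in all 13 alternatives run, with adjusted p from 9e-06 to 0.0112. The second held in all 13 alternatives run, with adjusted p from 2.57e-08 to 0.00409. It also fell from Tfh_1 to Tfh_5 under the label Cre-positive (-0.78 ± 0.21, adjusted p = 0.0396). That call did not hold without Cre-positive Tfh_1 replicate 1 (adjusted p = 0.0861), 3 (adjusted p = 0.14) and 6 (adjusted p = 0.0853), without Cre-positive Tfh_5 replicate 3 (adjusted p = 0.274) and 6 (adjusted p = 0.0835), with plain library sizes (adjusted p = 0.163) and with a fit of the compared groups alone (adjusted p = 0.124); over 13 alternatives it ran from 0.0108 to 0.274.

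Psmb9 measured 106, 229 and 114 CPM in Tfh_A, 125, 72.8 and 125 CPM in Tfh_1 and 17.4, 58.6 and 35.6 CPM in Tfh_5 under the label Cre-negative. Psmb9 under the label Cre-positive measured 70.5, 182 and 195 CPM in Tfh_A, 93.6, 108 and 118 CPM in Tfh_1 and 76.6, 22.7 and 47.4 CPM in Tfh_5. Its Tfh_5 libraries were the lowest under the label Cre-negative, and under the label Cre-positive the highest of them lay above the lowest of Tfh_A. Psmb9 fell from Tfh_A to Tfh_5 under the label Cre-negative (-2.01 ± 0.49, adjusted p = 0.0187). The Psmb9 call did not hold without Cre-negative Tfh_A replicate 4 (adjusted p = 0.0758) and without Cre-negative Tfh_5 replicate 2 (adjusted p = 0.0681) and 5 (adjusted p = 0.117); over 13 alternatives it ran from 3.98e-09 to 0.117. Under the label Cre-positive the change was -1.61 ± 0.48, adjusted p = 0.0617, which missed the threshold.

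Psmb10 read 91.9, 68.4 and 76.4 CPM in Tfh_A, 32.4, 24.96 and 34.9 CPM in Tfh_1 and 53.02, 51.3 and 30.3 CPM in Tfh_5 under the label Cre-negative. Psmb10 under the label Cre-positive read 75.8, 66.4 and 58.8 CPM in Tfh_A, 58.2, 34.02 and 59.1 CPM in Tfh_1 and 34.3, 92.4 and 79.03 CPM in Tfh_5. Psmb10 was lowest in Tfh_1 under the label Cre-negative, without overlap with Tfh_A, and under the label Cre-positive the treatments overlapped in part. It fell from Tfh_A to Tfh_1 under the label Cre-negative (-1.36 ± 0.34, adjusted p = 0.0211). The Psmb10 call did not hold without Cre-negative Tfh_A replicate 2 (adjusted p = 0.106) and 5 (adjusted p = 0.0793) and without Cre-negative Tfh_1 replicate 2 (adjusted p = 0.0732) and 4 (adjusted p = 0.149); over 13 alternatives it ran from 0.00368 to 0.149.

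Tap1 gave 122, 86.6 and 117 CPM in Tfh_A, 118, 97.9 and 79.9 CPM in Tfh_1 and 123, 92.6 and 70.9 CPM in Tfh_5 under the label Cre-negative. Tap1 under the label Cre-positive gave 126, 158 and 106 CPM in Tfh_A, 96.8, 107 and 53.4 CPM in Tfh_1 and 85.4, 70.5 and 31.1 CPM in Tfh_5. Tap1 overlapped between all treatments under the label Cre-negative, whereas under the label Cre-positive all 3 Tfh_5 libraries lay below all 3 Tfh_A libraries. It fell there from Tfh_A to Tfh_5 (-1.06 ± 0.31, adjusted p = 0.0339). The Tap1 call did not hold without Cre-positive Tfh_A replicate 1 (adjusted p = 0.0644) and 3 (adjusted p = 0.173), without Cre-positive Tfh_5 replicate 3 (adjusted p = 0.0511) and 6 (adjusted p = 0.236) and with a fit of the compared groups alone (adjusted p = 0.103); over 13 alternatives it ran from 0.00511 to 0.236. Tap2 varied from 0 to 73.6 CPM over the 18 libraries and passed in no comparison.

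B2m came to 2152, 2170 and 1701 CPM in Tfh_A, 1969, 1925 and 1723 CPM in Tfh_1 and 1618, 1782 and 1855 CPM in Tfh_5 under the label Cre-negative. B2m under the label Cre-positive came to 2532, 1755 and 1998 CPM in Tfh_A, 1248, 1424 and 1595 CPM in Tfh_1 and 1382, 1345 and 1815 CPM in Tfh_5. B2m took the largest part of the members' counts, and its libraries overlapped between most groups. From Tfh_A to Tfh_5 its change was -0.20 ± 0.16, adjusted p = 0.646 under the label Cre-negative and -0.47 ± 0.16, adjusted p = 0.0961 under the label Cre-positive. From Tfh_A to Tfh_1 under the label Cre-positive it was -0.56 ± 0.16, adjusted p = 0.058, with the groups apart. It passed in none of the 12 comparisons.

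The constitutive proteasome subunits Psmb5, Psmb6 and Psmb7, which the 3 immunoproteasome subunits replace, passed in none of the 12 comparisons. Their median change between Tfh_5 and Tfh_A was 0.12 under the label Cre-negative and 0.07 under the label Cre-positive. A difference between the 2 sets of subunits was not tested. Of 18 other genes of MHC class I presentation, 17 were tested. From Tfh_A to Tfh_5 the medians were -0.67 under the label Cre-negative and -0.82 under the label Cre-positive. Under the label Cre-negative 0 passed, against 1.91% of all genes called lower and 3.17% called higher. Under the label Cre-positive 1 fell, against 3.00% called lower. That gene was H2-K1, an MHC class I heavy chain, at 701, 624 and 627 CPM in Tfh_A and 269, 200.2 and 194 CPM in Tfh_5 (-1.56 ± 0.19, adjusted p = 2.66e-07). Tapbp, the chaperone that joins MHC class I to TAP, fell from Tfh_A to Tfh_1 under the label Cre-negative (-0.96 ± 0.25, adjusted p = 0.0245). The Tapbp call did not hold without Cre-negative Tfh_A replicate 2 (adjusted p = 0.0968) and 5 (adjusted p = 0.111) and without Cre-negative Tfh_1 replicate 2 (adjusted p = 0.159) and 5 (adjusted p = 0.205). Over 13 alternatives its adjusted p ran from 0.000516 to 0.205. Between the labels in Tfh_5, 1 of the 17 was higher under the label Cre-positive (Tapbp) and 2 lower (H2-K1 and Canx), against 1.19% and 2.05% of all genes. These calls held in 11, 11 and 8 of 12 alternatives. With the 3 treatments summed, Tapbp was higher and Canx lower, against 1.68% of genes in either direction. Both held in 5 of 11 alternatives.

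The transcription factors and sensors are the interferon regulatory factors Irf1, Irf7 and Irf9, Stat2, the MHC class I transactivator Nlrc5, the RNA sensors Ifih1, Dhx58 and Eif2ak2 (the kinase PKR), the Z-form nucleic acid sensor Zbp1, and Sting1, the adaptor of cytosolic DNA sensing. All 10 had a negative change from Tfh_A to Tfh_1 under the label Cre-negative, against 6124 of all 11735 genes. Of the 10, 1 passed, against 2.23% of all genes in either direction. Between Tfh_5 and Tfh_A, 9 of 10 were negative under each label (medians -0.97 and -1.25), against 6335 and 6169 of all genes. There 1 and 0 of the 10 fell past the threshold, against 1.91% and 3.00% of all genes called lower. Their sum went from 323 to 388 CPM in Cre-negative Tfh_A to 161 to 209 in Tfh_1 and 218 to 227 in Tfh_5, and was 373 to 395, 294 to 384 and 235 to 304 under the label Cre-positive.

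Nlrc5 stood at 15.5, 21.4 and 31.3 CPM in Tfh_A, 9.57, 5.78 and 7.57 CPM in Tfh_1 and 1.43, 2.71 and 0 CPM in Tfh_5 under the label Cre-negative. Nlrc5 under the label Cre-positive stood at 36.5, 13.01 and 31.6 CPM in Tfh_A, 6.21, 1.90 and 7.81 CPM in Tfh_1 and 15.9, 5.19 and 5.17 CPM in Tfh_5. Its Tfh_A libraries lay above those of both other treatments under the label Cre-negative, and under the label Cre-positive only the highest Tfh_5 library reached into their range. Nlrc5 fell from Tfh_A to Tfh_5 under the label Cre-negative (-4.01 ± 0.93, adjusted p = 0.00541). The Nlrc5 call held in all 13 alternatives run, with adjusted p from 4.98e-05 to 0.0402. Under the label Cre-positive the change was -1.63 ± 0.83, adjusted p = 0.296.

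Sting1 measured 101, 138 and 174 CPM in Tfh_A, 48.7, 89.7 and 61.6 CPM in Tfh_1 and 88.9, 91.2 and 100 CPM in Tfh_5 under the label Cre-negative. Sting1 under the label Cre-positive measured 115, 148 and 109 CPM in Tfh_A, 222, 157 and 218 CPM in Tfh_1 and 142, 127 and 114 CPM in Tfh_5. The mean of Sting1 was lowest in Tfh_1 under the label Cre-negative and highest in Tfh_1 under the label Cre-positive, without overlap between these 2 groups. It fell from Tfh_A to Tfh_1 under the label Cre-negative (-1.05 ± 0.25, adjusted p = 0.0145). This fall did not hold without Cre-negative Tfh_A replicate 4 (adjusted p = 0.0528) and 5 (adjusted p = 0.201) and without Cre-negative Tfh_1 replicate 2 (adjusted p = 0.149) and 5 (adjusted p = 0.0749); over 13 alternatives it ran from 0.000804 to 0.201.

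Eif2ak2 read 13.1, 5.73 and 18.1 CPM in Tfh_A, 0, 2.44 and 3.11 CPM in Tfh_1 and 7.65, 3.28 and 7.19 CPM in Tfh_5 under the label Cre-negative. Eif2ak2 under the label Cre-positive read 0.183, 1.41 and 2.16 CPM in Tfh_A, 0, 2.53 and 2.61 CPM in Tfh_1 and 0 CPM in all 3 libraries of Tfh_5. Eif2ak2 was highest on average in Cre-negative Tfh_A, overlapping with Cre-negative Tfh_5. Between treatments it passed in no comparison. Ifih1, at 11.3 to 30.5 CPM in the Tfh_A libraries, was at 0 to 2.36 CPM in Tfh_1 and 0 to 7.19 CPM in Tfh_5, and missed the threshold in every comparison (smallest adjusted p = 0.0544, Tfh_5 against Tfh_A under the label Cre-positive). Over all libraries Irf1 ran from 25.8 to 91.5 CPM, Irf9 from 25.1 to 74.5 CPM, Stat2 from 0 to 25.9 CPM, Zbp1 from 4.23 to 43.4 CPM, Dhx58 from 0 to 21.4 CPM and Irf7 from 0 to 10.1 CPM. None of these 6 passed in any comparison.

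The antiviral effectors are the largest role. They include Samhd1, which degrades the deoxynucleotides that retroviruses need, Isg15, a ubiquitin-like modifier, and Usp18, which removes it. Oas3 makes the 2-5A signal that activates RNase L, Ifit1 binds viral RNA, Mx1 is a GTPase that blocks nucleocapsids, and Bst2 (tetherin) holds budding virions at the membrane. Of the 15 tested, 14 had a negative change from Tfh_A to Tfh_5 under the label Cre-negative and 13 under the label Cre-positive. Over all 11735 genes these numbers were 6335 and 6169. Of the 15, 2 and 3 fell past the threshold, against 1.91% and 3.00% of all genes called lower. The role's medians were -2.12 and -1.46. The role's sum was 654 to 739 CPM in Tfh_A, 415 to 635 in Tfh_1 and 366 to 498 in Tfh_5 under the label Cre-negative. Under the label Cre-positive it was 694 to 789, 848 to 948 and 489 to 587 CPM. Samhd1 and Ifi27l2a make up most of the mean sum in every group.

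Oas3 stood at 19.98, 21.2 and 19.9 CPM in Tfh_A, 2.81, 2.44 and 1.35 CPM in Tfh_1 and 0 CPM in all 3 libraries of Tfh_5 under the label Cre-negative. Oas3 under the label Cre-positive stood at 7.67, 5.34 and 17.7 CPM in Tfh_A, 0.497, 0 and 6.51 CPM in Tfh_1 and 0 CPM in all 3 libraries of Tfh_5. Oas3 was thus counted in every Tfh_A library and in none of Tfh_5. From Tfh_A to Tfh_5 it was at least 141-fold lower, adjusted p = 0.00274, under the label Cre-negative and at least 75.2-fold lower, adjusted p = 0.00547, under the label Cre-positive. The first call held in all 13 alternatives run, with adjusted p from 1.58e-06 to 0.0148. The second held in all 13 alternatives run, with adjusted p from 1.86e-05 to 0.0294.

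Isg15 gave 2.16, 10.1 and 20.7 CPM in Tfh_A, 2.31, 1.52 and 0 CPM in Tfh_1 and 0.648, 0 and 0 CPM in Tfh_5 under the label Cre-negative. Isg15 under the label Cre-positive gave 6.39, 15.6 and 9.70 CPM in Tfh_A, 0, 0 and 1.95 CPM in Tfh_1 and 0 CPM in all 3 libraries of Tfh_5. The Tfh_A libraries did not overlap those of Tfh_5 under either label. It was at least 84.1-fold lower, adjusted p = 0.0303, in Tfh_5 than in Tfh_A under the label Cre-positive. The Isg15 call did not hold without Cre-positive Tfh_A replicate 3 (adjusted p = 0.0767) and 6 (adjusted p = 0.0543) and without Cre-positive Tfh_5 replicate 1 (adjusted p = 0.0932), 3 (adjusted p = 0.0923) and 6 (adjusted p = 0.0925); over 13 alternatives it ran from 0.000721 to 0.0932. Under the label Cre-negative the adjusted p was 0.164.

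Ifi27l2a measured 207, 219 and 153 CPM in Tfh_A, 149, 146 and 68.4 CPM in Tfh_1 and 151, 98.5 and 60.7 CPM in Tfh_5 under the label Cre-negative. Ifi27l2a under the label Cre-positive measured 238, 247 and 294 CPM in Tfh_A, 272, 260.1 and 278 CPM in Tfh_1 and 117, 94 and 92.2 CPM in Tfh_5. Ifi27l2a, a small membrane protein induced by type I interferon, was thus low in Tfh_5 under both labels, while Tfh_1 lay below Tfh_A under the label Cre-negative and overlapped it under the label Cre-positive. It fell from Tfh_A to Tfh_5 under the label Cre-negative (-0.90 ± 0.27, adjusted p = 0.0391) and under the label Cre-positive (-1.36 ± 0.27, adjusted p = 0.000875), and from Tfh_1 to Tfh_5 under the label Cre-positive (-1.42 ± 0.27, adjusted p = 0.00166). The call under the label Cre-negative did not hold without Cre-negative Tfh_A replicate 2 (adjusted p = 0.128) and 4 (adjusted p = 0.19), without Cre-negative Tfh_5 replicate 4 (adjusted p = 0.116) and 5 (adjusted p = 0.282) and with a fit of the compared groups alone (adjusted p = 0.161); over 13 alternatives it ran from 0.00106 to 0.282. The call against Cre-positive Tfh_A held in all 13 alternatives run, with adjusted p from 8.83e-06 to 0.00829. The call against Cre-positive Tfh_1 held in all 13 alternatives run, with adjusted p from 9.32e-06 to 0.0159.

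Samhd1 read 244, 192 and 170.4 CPM in Tfh_A, 325, 253 and 220 CPM in Tfh_1 and 160.4, 208 and 196 CPM in Tfh_5 under the label Cre-negative. Samhd1 under the label Cre-positive read 219, 215 and 204 CPM in Tfh_A, 494, 427 and 439 CPM in Tfh_1 and 272, 233 and 215 CPM in Tfh_5. Samhd1 was the 1 effector called higher between treatments: its mean was highest in Tfh_1 under both labels, and all 3 Cre-positive Tfh_1 libraries lay above every other library. It rose from Tfh_A to Tfh_1 under the label Cre-positive (1.09 ± 0.20, adjusted p = 0.000767) and fell from Tfh_1 to Tfh_5 (-0.92 ± 0.20, adjusted p = 0.00733). The rise held in all 13 alternatives run, with adjusted p from 3.8e-06 to 0.00858. The fall held in all 13 alternatives run, with adjusted p from 0.000345 to 0.0484. Under the label Cre-negative the change from Tfh_A to Tfh_1 was 0.40 ± 0.20, adjusted p = 0.42.

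The other tested effectors passed in no comparison. Dtx3l and Parp9, partners in a ubiquitin ligase complex whose genes overlap in the annotation, ran from 30.1 to 189.6 CPM and 9.61 to 66.1 CPM. The range was 0 to 29.4 CPM for Parp14, 0 to 37.8 CPM for Trim30a, 5.72 to 44.8 CPM for Ifi35 and 5.37 to 36.4 CPM for Bst2. It was 0 to 12.1 CPM for Usp18, 0 to 9.19 CPM for Isg20, 0 to 9.18 CPM for Mx1, 0 to 7.97 CPM for Ifit1 and 0 to 3.80 CPM for Xaf1. Trim30a, a regulator of inflammatory signalling, stood at 24.1 to 37.8 CPM in the 6 Tfh_A libraries and at 0 to 8.82 CPM in the 6 Tfh_5 libraries, and Mx1 and Ifit1 were at 0 in all Cre-positive Tfh_1 and Tfh_5 libraries.

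The interferon-inducible GTPases fall into the guanylate-binding proteins Gbp2, Gbp3, Gbp4 and Gbp7 and the immunity-related GTPases Igtp, Irgm1, Iigp1 and Ifi47. Both families take part in defence against intracellular pathogens. Between Tfh_5 and Tfh_A, 1 of the 8 fell under the label Cre-negative, against 1.91% of all genes called lower. Under the label Cre-positive 2 of the 8 fell and 1 rose, against 3.00% and 2.39%. The medians of the 8 were -1.08 and -0.66. They summed to 332 to 421 CPM in Tfh_A, 198 to 296 in Tfh_1 and 107 to 256 in Tfh_5 under the label Cre-negative, and to 233 to 349.9, 408 to 484 and 297 to 436 under the label Cre-positive.

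Gbp2 stood at 148, 195 and 126 CPM in Tfh_A, 153, 143 and 104 CPM in Tfh_1 and 88.4, 73.5 and 39.3 CPM in Tfh_5 under the label Cre-negative. Gbp2 under the label Cre-positive stood at 87.7, 172 and 169 CPM in Tfh_A, 294, 272 and 218 CPM in Tfh_1 and 109.8, 88.03 and 130.2 CPM in Tfh_5. Gbp2 was lowest in Cre-negative Tfh_5 and highest in Cre-positive Tfh_1. It fell from Tfh_A to Tfh_5 under the label Cre-negative (-1.22 ± 0.28, adjusted p = 0.00419) and from Tfh_1 to Tfh_5 under the label Cre-positive (-1.26 ± 0.28, adjusted p = 0.00804). The first call did not hold without Cre-negative Tfh_A replicate 4 (adjusted p = 0.0519), without Cre-negative Tfh_5 replicate 5 (adjusted p = 0.0507) and with a fit of the compared groups alone (adjusted p = 0.0543); over 13 alternatives it ran from 0.000252 to 0.0543. The second did not hold without Cre-positive Tfh_5 replicate 3 (adjusted p = 0.0607) and with plain library sizes (adjusted p = 0.0528); over 13 alternatives it ran from 0.000335 to 0.0607.

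Gbp7 gave 13.5, 18.8 and 16.98 CPM in Tfh_A, 3.80, 6.24 and 3.65 CPM in Tfh_1 and 1.95, 0 and 0 CPM in Tfh_5 under the label Cre-negative. Gbp7 under the label Cre-positive gave 6.03, 20.7 and 11.97 CPM in Tfh_A, 5.97, 8.07 and 0 CPM in Tfh_1 and 0 CPM in all 3 libraries of Tfh_5. Gbp7, the neighbour of Gbp2, was present in every Tfh_A library and in 1 of the 6 Tfh_5 libraries. Under the label Cre-positive it was at least 105-fold lower, adjusted p = 0.00434, in Tfh_5 than in Tfh_A, and at least 35.5-fold lower, adjusted p = 0.0341, than in Tfh_1. The call against Tfh_A held in all 13 alternatives run, with adjusted p from 1.26e-05 to 0.02. The call against Tfh_1 did not hold without Cre-positive Tfh_1 replicate 1 (adjusted p = 0.0588) and 3 (adjusted p = 0.0814) and without Cre-positive Tfh_5 replicate 1 (adjusted p = 0.0939), 3 (adjusted p = 0.111) and 6 (adjusted p = 0.113); over 12 alternatives it ran from 0.00147 to 0.113. Gbp4 measured 15.8, 9.41 and 18.8 CPM in Tfh_A, 1.32, 12.8 and 0.946 CPM in Tfh_1 and 2.72, 4.85 and 0.167 CPM in Tfh_5 under the label Cre-negative. Gbp4 under the label Cre-positive measured 13.9, 12 and 11.02 CPM in Tfh_A, 8.08, 0 and 0 CPM in Tfh_1 and 0 CPM in all 3 libraries of Tfh_5. Gbp4 was likewise absent from the counts of Cre-positive Tfh_5, where it was at least 88.6-fold lower, adjusted p = 0.00853, than in Tfh_A. The Gbp4 call held in all 13 alternatives run, with adjusted p from 6.89e-05 to 0.0354.

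Ifi47 read 67.5, 104 and 73.4 CPM in Tfh_A, 49.8, 67.7 and 47.02 CPM in Tfh_1 and 82.97, 87.8 and 53.5 CPM in Tfh_5 under the label Cre-negative. Ifi47 under the label Cre-positive read 42.2, 63.6 and 47.7 CPM in Tfh_A, 93.1, 81.6 and 139 CPM in Tfh_1 and 123, 176 and 259 CPM in Tfh_5. Ifi47 was the 1 GTPase called higher between treatments, and under the label Cre-positive the 3 Tfh_5 libraries and the 3 Tfh_1 libraries all lay above the 3 Tfh_A libraries. It rose there from Tfh_A to Tfh_5 (1.86 ± 0.30, adjusted p = 5.08e-05) and to Tfh_1 (1.03 ± 0.29, adjusted p = 0.0494). The first rise held in all 13 alternatives run, with adjusted p from 1.42e-07 to 0.00221. The second did not hold without Cre-positive Tfh_A replicate 1 (adjusted p = 0.197), 3 (adjusted p = 0.0594) and 6 (adjusted p = 0.164), without Cre-positive Tfh_1 replicate 1 (adjusted p = 0.0739) and 6 (adjusted p = 0.31), with plain library sizes (adjusted p = 0.225) and with a fit of the compared groups alone (adjusted p = 0.0607); over 13 alternatives it ran from 0.0281 to 0.31. Under the label Cre-negative the changes were -0.12 ± 0.29, adjusted p = 0.932 and -0.57 ± 0.29, adjusted p = 0.434. The others passed nowhere: Igtp ran from 13.9 to 86.1 CPM, Gbp3 from 0 to 12.2 CPM, Irgm1 from 0 to 10.7 CPM and Iigp1 from 0 to 10.2 CPM.

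**Figure D4:**
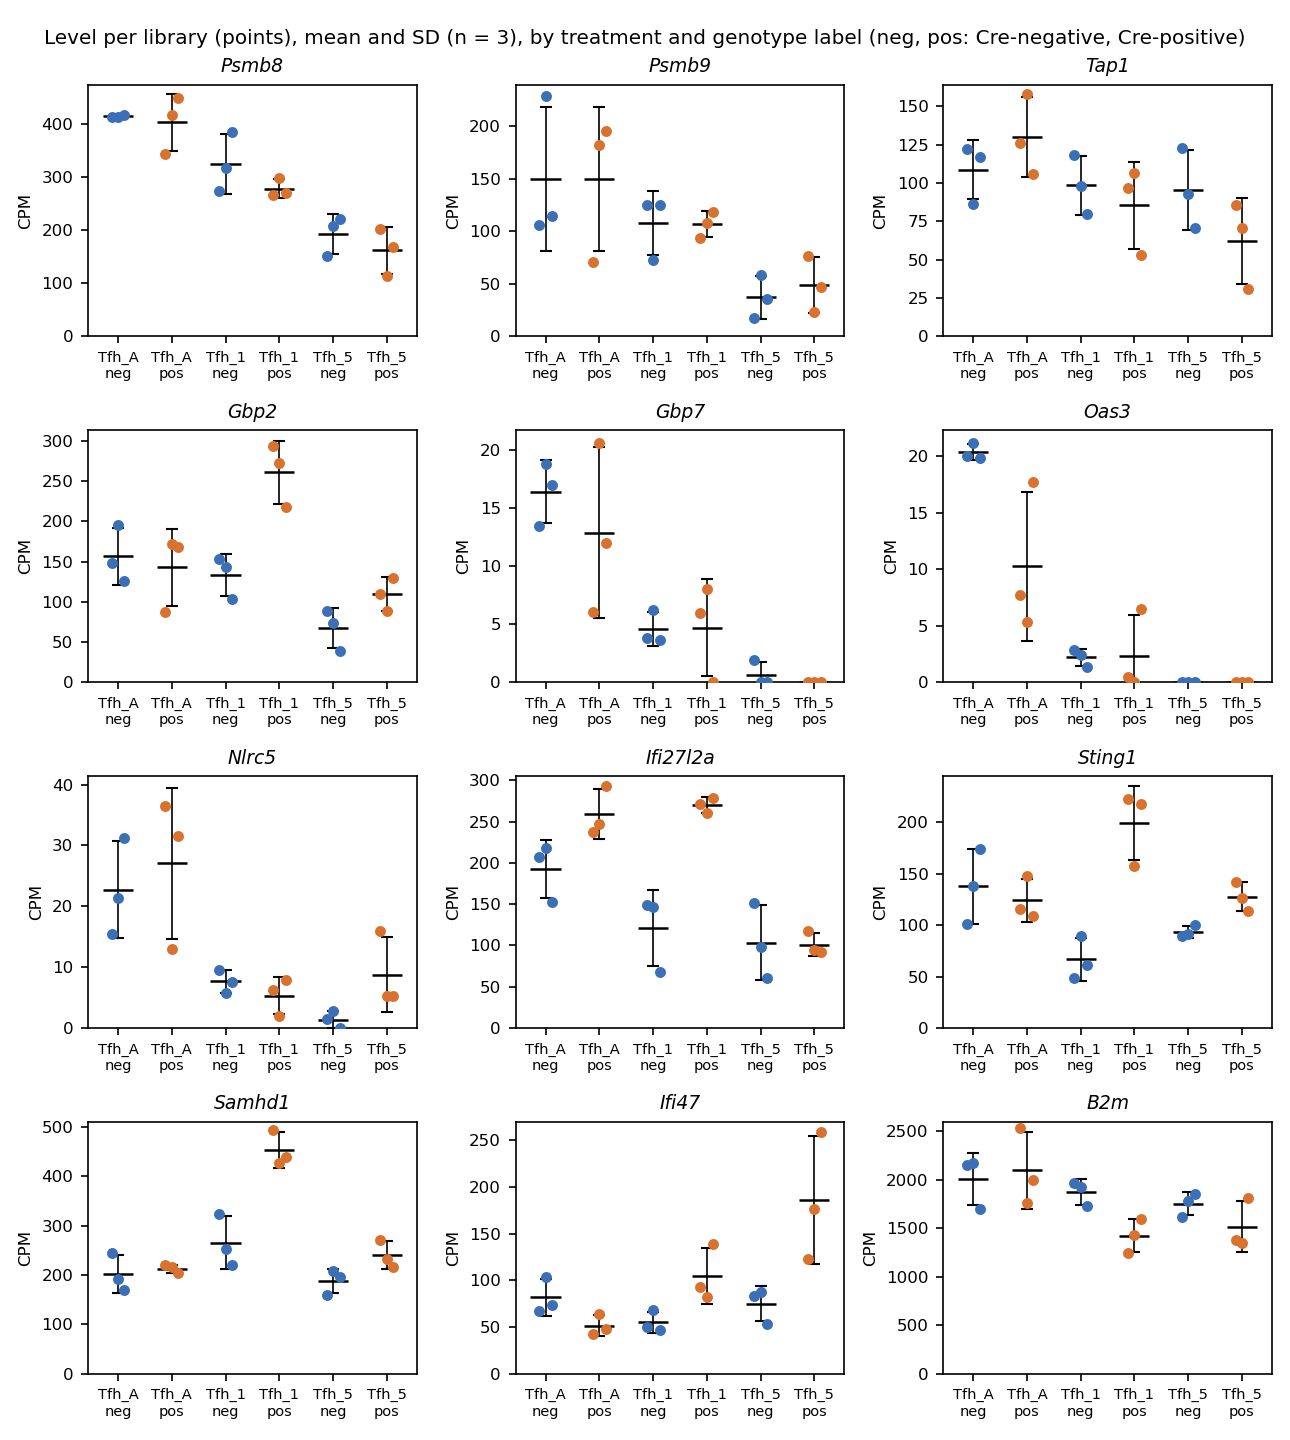
CPM of 12 members in each library, by treatment and genotype label, with points for libraries, a horizontal line for the group mean and bars of 1 SD (n = 3). Psmb8 falls from Tfh_A to Tfh_5 under both labels, Samhd1 and Sting1 peak in Cre-positive Tfh_1, and Ifi47 is highest in Cre-positive Tfh_5.

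The comparison of the genotype labels within a treatment asks how the members differ with Cre; Maf ran against the labels here, so each direction below is between labels only. In Tfh_A, 0 members passed, against 0% of all genes in either direction; 2 members had an unadjusted p under 0.05, and DESeq2 called 0. In Tfh_1, 2 rose and 0 fell under the label Cre-positive, against 0.511% of all genes called higher and 0.341% called lower. This count became 1 without Cre-negative Tfh_1 replicate 5 or Cre-positive Tfh_1 replicate 1 or 6. In Tfh_5, 1 rose and 1 fell, against 1.19% and 2.05%. Of these 2 calls, 0 held without Cre-negative Tfh_5 replicate 5 or Cre-positive Tfh_5 replicate 6, and 1 held without Cre-negative Tfh_5 replicate 2 or Cre-positive Tfh_5 replicate 1 or 3. The member medians were -0.09, 0.08 and -0.04 in Tfh_A, Tfh_1 and Tfh_5. With the 3 treatments summed per replicate number, 3 against 3, 0 members passed, against 1.68% of 11693 genes in either direction; 9 had an unadjusted p under 0.05, and DESeq2 called 5.

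In Tfh_1, Sting1 was higher under the label Cre-positive (1.58 ± 0.26, adjusted p = 0.000381), at 222, 157 and 218 CPM against 48.7, 89.7 and 61.6. This call held in all 12 alternatives run, with adjusted p from 4.57e-07 to 0.00833. Ifi27l2a was higher as well (1.16 ± 0.27, adjusted p = 0.0217), with no overlap between the labels. The Ifi27l2a call did not hold without Cre-negative Tfh_1 replicate 5 (adjusted p = 0.242), without Cre-positive Tfh_1 replicate 1 (adjusted p = 0.0656) and 6 (adjusted p = 0.0722) and with plain library sizes (adjusted p = 0.0598); over 12 alternatives it ran from 0.00139 to 0.242. Samhd1 (0.77 ± 0.20, adjusted p = 0.0501) and Gbp2 (0.97 ± 0.27, adjusted p = 0.0892) missed the threshold. The T cell marker sum was also higher under the label Cre-positive in Tfh_1, at 3479 to 3763 against 2262 to 2706 CPM. Of the 8 markers 2 were called higher, against 0.511% of all genes. Ebf1 was at 0 CPM against 15.8 to 24.3. The part of these markers in the members' differences was not tested.

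In Tfh_5, Ifi47 was higher under the label Cre-positive (1.31 ± 0.29, adjusted p = 0.00613), with all 3 libraries above all 3 labelled Cre-negative. The Ifi47 call did not hold without Cre-negative Tfh_5 replicate 5 (adjusted p = 0.0561), without Cre-positive Tfh_5 replicate 6 (adjusted p = 0.0797) and with a fit of the compared groups alone (adjusted p = 0.0905); over 12 alternatives it ran from 0.00118 to 0.0905. Eif2ak2, at 7.65, 3.28 and 7.19 CPM under the label Cre-negative and 0 in all 3 libraries labelled Cre-positive, was at least 44.4-fold lower, adjusted p = 0.0469. The Eif2ak2 call did not hold without Cre-negative Tfh_5 replicate 2 (adjusted p = 0.0843) and 5 (adjusted p = 0.0766), without Cre-positive Tfh_5 replicate 1 (adjusted p = 0.139), 3 (adjusted p = 0.122) and 6 (adjusted p = 0.141), with plain library sizes (adjusted p = 0.0508) and with a fit of the compared groups alone (adjusted p = 0.193); over 12 alternatives it ran from 0.00104 to 0.193. The T cell marker sum was 3067 to 3463 against 2099 to 2722 CPM. Again 2 of the 8 markers were called higher, against 1.19% of all genes. Ebf1 was called lower (adjusted p = 0.00156), at 0 to 0.302 against 2.71 to 11.02 CPM. The part of these markers was not tested.

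The difference between the labels' differences was tested by an interaction term. Between Tfh_1 and Tfh_A it passed for 1 member, Sting1 (1.73 ± 0.35, adjusted p = 0.0139), against 0.239% of all genes in either direction: Sting1 fell from Tfh_A to Tfh_1 under the label Cre-negative and had a change of 0.68 ± 0.25, adjusted p = 0.164 under the label Cre-positive. The interaction did not hold without Cre-negative Tfh_A replicate 5 (adjusted p = 0.0985), without Cre-positive Tfh_A replicate 6 (adjusted p = 0.0682), without Cre-negative Tfh_1 replicate 2 (adjusted p = 0.0744) and 5 (adjusted p = 0.0571) and without Cre-positive Tfh_1 replicate 1 (adjusted p = 0.0624); over 19 alternatives it ran from 0.0012 to 0.0985. Between Tfh_5 and Tfh_A it passed for 1 member, Ifi47 (1.98 ± 0.41, adjusted p = 0.00687), against 1.19%. That interaction held in all 19 alternatives run, with adjusted p from 0.000621 to 0.0392. In these 2 tests no other member passed with all libraries, and without Cre-negative Tfh_5 replicate 2 the second test passed for 2, so a call under 1 label and not the other, as for Nlrc5, Tap1 or Gbp4, is not shown to differ between the labels.

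The wider pathway was followed with a list of 24 interferons, receptors and upstream signalling genes, 21 of which were tested. Between Tfh_5 and Tfh_A, 1 rose and 1 fell under the label Cre-negative, against 3.17% and 1.91% of all genes. Under the label Cre-positive 0 passed, against 2.39% called higher and 3.00% called lower. The medians were -0.18 and 0.03. Irf8, a transcription factor of the same family as Irf1, rose (2.20 ± 0.46, adjusted p = 0.00183), from 15.8, 14.9 and 18.4 CPM in Tfh_A to 79.3, 67.5 and 79.1 CPM in Tfh_5. The Irf8 call held in all 13 alternatives run, with adjusted p from 1.72e-05 to 0.0201. Socs1, an inhibitor of JAK signalling that interferon itself induces, fell (-1.94 ± 0.43, adjusted p = 0.00399), from 65.3, 85.2 and 68.8 CPM to 7.001, 29.8 and 20.4 CPM. The Socs1 call held in all 13 alternatives run, with adjusted p from 1.03e-05 to 0.0349. Socs1 was also higher under the label Cre-positive in Tfh_5 (1.62 ± 0.43, adjusted p = 0.0277). This difference between labels did not hold without Cre-negative Tfh_5 replicate 2 (adjusted p = 0.141) and 5 (adjusted p = 0.0906), without Cre-positive Tfh_5 replicate 1 (adjusted p = 0.0779) and 6 (adjusted p = 0.215) and with a fit of the compared groups alone (adjusted p = 0.274); over 12 alternatives it ran from 0.000861 to 0.274. Ifnb1 was at 0 in every library and Ifng reached at most 1.64 CPM.

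Of 57 other interferon-induced genes that are no members, 44 were tested. They were listed with earlier results of these data known. From Tfh_A to Tfh_5, 5 fell and 0 rose under the label Cre-negative, against 1.91% and 3.17% of all genes. Those with the smallest adjusted p were Ly6a, Phf11b, Epsti1 and Pml. Under the label Cre-positive 7 fell and 3 rose, against 3.00% and 2.39%. The median was -0.88 under the label Cre-negative and -0.92 under the label Cre-positive. The Phf11b call did not hold without Cre-negative Tfh_5 replicate 4 (adjusted p = 0.0784) and 5 (adjusted p = 0.0906) and with a fit of the compared groups alone (adjusted p = 0.0672); over 13 alternatives it ran from 0.000178 to 0.0906. The Epsti1 call did not hold without Cre-negative Tfh_A replicate 4 (adjusted p = 0.0699) and 5 (adjusted p = 0.111), without Cre-negative Tfh_5 replicate 2 (adjusted p = 0.0732) and 5 (adjusted p = 0.0516) and with a fit of the compared groups alone (adjusted p = 0.0858); over 13 alternatives it ran from 0.000505 to 0.111. The Pml call did not hold without Cre-negative Tfh_A replicate 2 (adjusted p = 0.0753) and 5 (adjusted p = 0.186), without Cre-negative Tfh_5 replicate 2 (adjusted p = 0.16) and 5 (adjusted p = 0.0827) and with a fit of the compared groups alone (adjusted p = 0.0905); over 13 alternatives it ran from 0.000628 to 0.186. Under the label Cre-positive the smallest adjusted p were those of Ly6a, Gbp8 and Ifitm1, which fell, and Tgtp2, which rose and has a near-identical copy, Tgtp1, whose reads may be split with it. The Ifitm1 call did not hold without Cre-positive Tfh_5 replicate 1 (adjusted p = 0.0856); over 13 alternatives it ran from 1.58e-10 to 0.0856. The Tgtp2 call did not hold without Cre-positive Tfh_A replicate 1 (adjusted p = 0.0829) and 3 (adjusted p = 0.102) and without Cre-positive Tfh_5 replicate 6 (adjusted p = 0.126); over 13 alternatives it ran from 0.00412 to 0.126. From Tfh_A to Tfh_1, 3 fell under the label Cre-negative (Ly6a, Phf11b and Ifi30), against 2.23% of all genes called in either direction. Under the label Cre-positive 2 fell (Ly6a and Gbp8), against 0.997% called lower. The medians were -1.01 and -0.53. The fall of Ly6a under the label Cre-negative did not hold without Cre-negative Tfh_A replicate 2 (adjusted p = 0.133) and without Cre-negative Tfh_1 replicate 2 (adjusted p = 0.115) and 5 (adjusted p = 0.0612); over 13 alternatives it ran from 2.55e-05 to 0.133. That of Phf11b did not hold without Cre-negative Tfh_A replicate 2 (adjusted p = 0.0912), 4 (adjusted p = 0.0913) and 5 (adjusted p = 0.0578) and without Cre-negative Tfh_1 replicate 2 (adjusted p = 0.136) and 5 (adjusted p = 0.179); over 13 alternatives it ran from 0.00131 to 0.179. That of Ifi30 did not hold without Cre-negative Tfh_A replicate 4 (adjusted p = 0.129) and 5 (adjusted p = 0.351) and without Cre-negative Tfh_1 replicate 2 (adjusted p = 0.0893), 4 (adjusted p = 0.247) and 5 (adjusted p = 0.068). Over 13 alternatives its adjusted p ran from 0.00886 to 0.351. Between the labels in Tfh_1, 2 of the 44 were higher under the label Cre-positive and 0 lower, against 0.511% and 0.341% of all genes. In Tfh_5, 3 were higher and 2 lower, against 1.19% and 2.05%. With the 3 treatments summed, 3 of 45 were higher and 0 lower, against 1.68% in either direction. These 3 were Shisa5, which held in all 11 alternatives, and Slfn1 and Slfn2, which held in 5.

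Ly6a, a surface antigen of activated T cells that interferon induces, had the smallest adjusted p of these genes in each of the 4 comparisons with Tfh_A. It measured 1471, 1105 and 1102 CPM in Tfh_A, 645, 888 and 699 in Tfh_1 and 704, 716 and 729.5 in Tfh_5 under the label Cre-negative, and 1601, 1321 and 1417 CPM in Tfh_A, 821, 742 and 708 in Tfh_1 and 312, 312 and 304 in Tfh_5 under the label Cre-positive. The Tfh_A libraries lay above all others under both labels. From Tfh_A to Tfh_5 it fell by 0.77 ± 0.17, adjusted p = 0.00234, on the log2 scale under the label Cre-negative and by 2.23 ± 0.17, adjusted p = 1.15e-11, under the label Cre-positive. The first call held in all 13 alternatives run, with adjusted p from 9.56e-07 to 0.0441. The second held in all 13 alternatives run, with adjusted p from 4.53e-49 to 9.64e-06. The interaction between Tfh_5 and Tfh_A passed for Ly6a (-1.45 ± 0.24, adjusted p = 0.000252) and for H2-K1 (-1.45 ± 0.26, adjusted p = 0.00138), both with the more negative change under the label Cre-positive. The change of H2-K1 under the label Cre-negative was -0.11 ± 0.19, adjusted p = 0.898. The Ly6a interaction held in all 19 alternatives run, with adjusted p from 3.92e-10 to 0.02. The H2-K1 interaction did not hold with plain library sizes (adjusted p = 0.07); over 19 alternatives it ran from 1.92e-06 to 0.07.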

How the data were processed

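RNA from 18 sorted cultures was read from the 3′ end of each transcript. The authors deposited expected counts per gene (11.7% to 18.1% of values per library are not whole). The submitters' processing notes name STAR 2.7.2b, featureCounts 1.6.4 and mm10. How reads were divided between genes and whether strand was used are not given in the sources used here. Of the 27179 genes listed, 25275 have a symbol in the reference table and 1904 do not. The design had assumed whole counts; the values were rounded to whole numbers and tested with edgeR 4.0.16 (R 4.3.3): TMM, filterByExpr, a robust quasi-likelihood fit of 6 group means over 18 libraries, and Benjamini-Hochberg adjustment over 11735 genes at 0.05. CPM is the rounded count over library size times the TMM factor. For the summed genotype comparison, counts were summed per replicate number (11693 genes tested).

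Members and gene lists were chosen with earlier results of these data known. By rule, values in every library are given for each member past the threshold in any comparison (up to 10 per comparison) and for the member with the highest mean CPM of its role, others as ranges; of the other lists up to 4 called genes per comparison could be named. The test was run on simulated data whose spread was capped below the common estimate of these data, with changes placed only in well-counted genes. That run does not cover members near 0 counts. Alternatives were DESeq2 1.42.0, no filter, plain library sizes, the 2 most abundant genes left out, fractional counts, a fit of the compared groups alone, each library left out, and the replicate number as a block. Correlations of the deviations of same-numbered libraries ran from -0.0373 to 0.0662 over 18 pairs, and numbers were not used to pair in the main fit. These correlations were taken over all tested genes with their counting noise, so low values cannot exclude a shared animal. No 2 libraries held identical values. Coordinates and promoters are from RefSeq (GRCm38.p6).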

Additional observations from a re-analysis of the deposited data

Results flagged for a closer look

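4 results for members and other genes of the pathway differed between treatments by the test of the difference itself, the interaction of genotype label and treatment in edgeR's quasi-likelihood fit. For Sting1 the difference between the labels was larger in Tfh_1 than in Tfh_A by 1.73 ± 0.35 on the log2 scale (adjusted p = 0.0139), and for Ifi47 it was larger in Tfh_5 than in Tfh_A by 1.98 ± 0.41 (adjusted p = 0.00687). For 2 genes that are no members the difference ran the other way between Tfh_5 and Tfh_A, at -1.45 ± 0.24 for Ly6a (adjusted p = 0.000252) and -1.45 ± 0.26 for H2-K1 (adjusted p = 0.00138). The Sting1 interaction missed the threshold in 5 of 19 alternatives, each without 1 library. The B cell marker Ebf1 also passed the interaction in both, with adjusted p = 0.00338 for Tfh_1 and 0.0306 for Tfh_5, and was at 0 in all Cre-positive Tfh_1 libraries.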

How the results depend on the processing

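All values are counts of members called. Without the filter on low counts the counts were 4 (label difference in Tfh_5), 5 (Tfh_1 against Tfh_A, Cre-negative), 4 (Tfh_5 against Tfh_1, Cre-negative), 4 (Tfh_1 against Tfh_A, Cre-positive), 8 (Tfh_5 against Tfh_1, Cre-positive), 2 and 3 (interactions for Tfh_1 and Tfh_5) and 6 (summed treatments). With plain library sizes they were 1 and 1 (labels in Tfh_1 and Tfh_5), 4 and 14 (Tfh_1 and Tfh_5 against Tfh_A, Cre-negative) and 3 (Tfh_5 against Tfh_1, Cre-positive). DESeq2 gave 4 and 4 (labels in Tfh_1 and Tfh_5), 5 (Tfh_5 against Tfh_1, Cre-negative), 5, 14 and 8 (Cre-positive: Tfh_1 against Tfh_A, Tfh_5 against Tfh_A, Tfh_5 against Tfh_1) and 5 (summed). Fits of the compared groups alone gave 4 and 0 (labels in Tfh_1 and Tfh_5), 6 (Tfh_1 against Tfh_A, Cre-negative), 1 and 3 (Cre-positive: Tfh_1 against Tfh_A, Tfh_5 against Tfh_1) and 2 (interaction for Tfh_1). The cause was not tested. Leaving out each library in turn gave 0 to 0 (labels in Tfh_A), 1 to 3 (Tfh_1), 0 to 2 (Tfh_5), 0 to 1, 3 to 8 and 0 to 2 (Cre-negative: Tfh_1 against Tfh_A, Tfh_5 against Tfh_A, Tfh_5 against Tfh_1), 1 to 3, 6 to 8 and 2 to 4 (Cre-positive, same order), 0 to 1 and 1 to 2 (interactions) and 0 to 0 (summed).

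The replicate block gave 3, 7 and 0 calls (Cre-negative, same order), 2, 8 and 4 (Cre-positive) and 1 and 1 (interactions). It moved the member median between Tfh_5 and Tfh_A under the label Cre-negative from -1.10 to -1.61, and that of all genes from -0.09 to -0.19. Of the calls of named genes it ended those of Gbp7 between Tfh_5 and Tfh_1, Cre-positive (adjusted p = 0.101), Epsti1 between Tfh_5 and Tfh_A, Cre-negative (adjusted p = 0.0877) and Ifi30 between Tfh_1 and Tfh_A, Cre-negative (adjusted p = 0.0592), and no other. The genotype labels share no replicate numbers, so no block was possible there. Over all alternatives, 314 member values stayed past the threshold, 70 did not, and 0 changed sign. Plain library sizes moved the member median of the interaction for Tfh_5 from -0.27 to 0.21, beside a median of 0.44 over all genes with that scaling, and of the summed comparison from 0.10 to -0.08, beside -0.12. 20 members had more than 3 libraries at 0, where depth limits what can be seen.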
